A study of Mus musculus with 111 samples.

Results

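The comparison described here is that of late-dark with mid-light gene expression in the tuberomammillary nucleus (TMN) of mice that expressed the H3.3(Q5A) histone mutant, and its members were the 12 libraries whose labels give the Q5A virus and zeitgeber time (ZT) 8 or ZT20, 6 at each time, of 111 libraries in the series. ZT counts hours from lights on, so ZT8 falls in the light, when mice are mostly inactive, and ZT20 late in the dark, when they are active. The animals were male and female C57BL/6 mice (C57BL/6J in the study's methods), 8 to 10 weeks old when purchased and kept on a light-dark cycle, and tissue was collected 21 days after the virus was given. All had received an adeno-associated virus into the TMN of both hemispheres, which in the Q5A group carried H3.3(Q5A) with Flag and HA tags and, after an internal ribosome entry site, GFP. The controls at the same times had received a virus with GFP alone (6 libraries at ZT8, 5 at ZT20) or with tagged wild-type H3.3 (7 and 6), and were pooled into 13 and 11 libraries. Each library came from 1 animal. The infected tissue was dissected under GFP light from frozen sections, so that uninfected neurons, glia and vessels of the region and the neighbouring hypothalamus could be in every library.

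The TMN holds the histamine neurons of the brain, which fire during waking and are silent in sleep. Histamine and other monoamines can be attached by transglutaminase 2 to glutamine 5 of histone H3, next to lysine 4, whose methylation marks active promoters. The Q5A protein has alanine at that position and can carry no monoamine there. In most tissues the core clock proteins CLOCK and BMAL1 drive the genes of their own repressors (Per, Cry, Nr1d1) and of output factors such as Dbp, so that transcripts of the loop differ between mid-light and late dark. The question asked of these 12 libraries was which transcripts differ between the inactive and the active phase while the mutant histone is present.

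The data are read counts per gene name. Read totals in gene rows ran from 1434935 to 1750131 at ZT8 (mean 1598978 ± 122013, SD, n = 6) and from 1099863 to 2089895 at ZT20 (1451346 ± 346992, SD, n = 6), and did not differ beyond the spread (exact permutation test, 2-sided, p = 0.355, adjusted p = 0.532 over 3 depth measures). Gene rows held 4.02% ± 0.186 of uniquely placed reads at ZT8 and 3.83% ± 0.223 at ZT20 (SD, n = 6 each; exact permutation p = 0.134, adjusted p = 0.403). Reads were counted only on the strand of the gene, whereas the stated kit gives a first read that runs against the transcript. At ZT8, for example, the row of the hormone gene Pmch held a median of 148 normalised counts and the row of Parpbp, which lies opposite it, 28234. A row can therefore hold reads of a gene on the other strand, and each row is named here together with the gene that its exons overlap there. The own row of a gene can likewise lack most reads of that gene. A change in a row, or in a list of own rows, need not be a change of the genes named. Levels are normalised counts, which are counts divided by a median-of-ratios size factor per library, and they are not per length, so they are compared between libraries and not between genes.

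Across 9413 rows with enough reads, 11 differed between ZT20 and ZT8 in the Q5A libraries at an adjusted p under 0.05 (0.117% of the rows tested), 9 of them higher at ZT20 (0.0956%) and 2 higher at ZT8 (0.0212%). At an unadjusted p under 0.05 there were 1649 rows (17.5%), 832 higher at ZT20 (8.84%) and 817 higher at ZT8 (8.68%). No row passed an adjusted p under 0.01 by edgeR, while DESeq2 had 36 there and 211 at 0.05 (2.24%). The rows higher at ZT20 were long non-coding, antisense or clone-named transcripts, together with a short model inside a histone gene. Whether such rows were more frequent here than among all rows tested was not examined. The rows higher at ZT8 were Son, which encodes a scaffold of nuclear speckles needed for splicing, and Zfp846, a zinc finger protein gene.

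The short model is Gm44313, annotated as a miRNA on the minus strand of chromosome 11 (GRCm38, chr11:58954983-58955120), and it lies opposite a coding exon of Hist3h2a, which encodes histone H2A; an exon of Trim17, a ubiquitin ligase gene, overlaps it as well. Gm22877, a second short model that was called when the striatal library described below was left out but not with all 12, lies at chr14:103650453-103650557 on the minus strand, opposite a coding exon of Slain1, a microtubule-associated protein gene. Both are shown because the finding turns on where reads of such rows can come from: every base (in capitals) is the complement of protein-coding sequence of the other gene. Their GC content was 65.2% and 76.2%.
Gm44313: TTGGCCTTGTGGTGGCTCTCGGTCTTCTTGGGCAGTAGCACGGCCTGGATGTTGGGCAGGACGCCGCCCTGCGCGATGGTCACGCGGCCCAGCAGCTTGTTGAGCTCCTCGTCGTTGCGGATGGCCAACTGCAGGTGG
Gm22877: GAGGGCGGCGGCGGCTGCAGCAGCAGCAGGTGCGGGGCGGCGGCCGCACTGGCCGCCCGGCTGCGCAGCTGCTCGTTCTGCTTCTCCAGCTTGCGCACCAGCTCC

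Before the rows are described, the libraries that stood apart are given. Replicate 3 of cohort 1 at ZT20 is called the striatal library below. Its summed level over the striatal marker rows was 3155 normalised counts, against 285 to 444 in the other 11 libraries. Ppp1r1b (opposite 1700003D09Rik), a phosphoprotein of dopamine signalling in striatal neurons, stood at 621 there and at 16.4 or less in the others. The Top2b row, opposite the striatal transcription factor gene Rarb, stood at 2549 against at most 236. Adora2a, the adenosine receptor of striatopallidal neurons, stood at 48.7 against at most 1.56. The level of the Parpbp row, opposite the melanin-concentrating hormone gene Pmch of the lateral hypothalamus, also varied within ZT20. It ran from 14927 to 37212 at ZT8 (median 28234), and at ZT20 it was 54.5, 39819, 1538 and 50337 in cohort 1 and 43315 and 6171 in cohort 2. Thus 3 of 6 ZT20 libraries, the striatal one among them, lay below every ZT8 library. In the controls the Parpbp row ran from 44.9 to 63351 at ZT8 and from 1238 to 36327 at ZT20, so low values were not confined to ZT20. Hcrt, the orexin gene of the lateral hypothalamus, was at 0, 12.3, 0, 119, 138 and 6.62 in the Q5A libraries of ZT20, in the order given above. It lay between 24.6 and 97.6 in those of ZT8. Hdc, the histamine-synthesising enzyme that defines TMN neurons, had 1 to 16 reads per library at ZT8 and 0 to 13 at ZT20, too few in its own row to check the region by, given the strand on which reads were counted. The part of these regional differences in the results below was not tested beyond the fits without those libraries. In bulk tissue fewer cells of a type cannot be told apart from less RNA per cell.

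**Figure D1:**
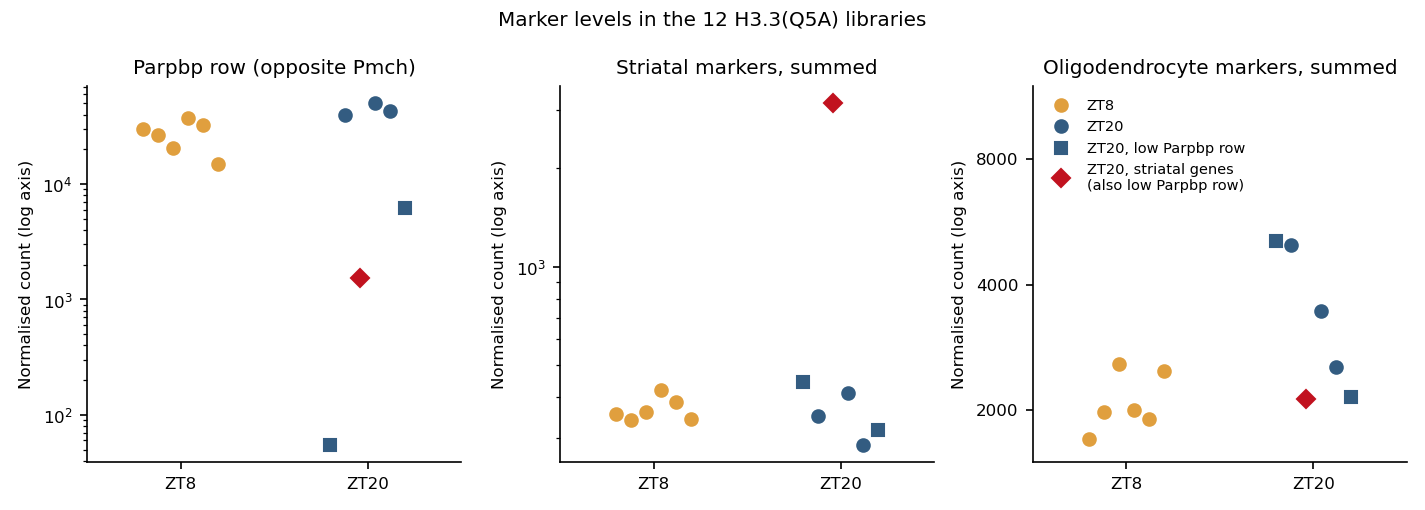
Normalised counts (log axes) of the Parpbp row, of the summed striatal rows and of the summed oligodendrocyte rows in each of the 12 Q5A libraries, with the 3 ZT20 libraries low in the Parpbp row as squares and, for the striatal library, a diamond. The diamond stands at 3155 in the striatal panel, where all others lie at 444 or below, and the 2 highest ZT20 libraries of the oligodendrocyte panel stand at 5097 and 4996.

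Among the rows called, the largest changes towards ZT20 were in clone-named rows, whose positions were not available in the annotation used here. RP24-263G24.2 ran from 9.36 to 40.9 normalised counts at ZT8 (median 17.9) and from 39.7 to 125 at ZT20 (median 91.4). The groups overlapped, with 4 of 6 ZT20 libraries above all of ZT8, and the log2 change was 2.02 ± 0.335 (SE; adjusted p = 0.0238). RP24-263G24.3, named for the same clone, went from 7.02 to 37.6 (median 21.8) to between 48.7 and 142 (median 72.5), with no overlap between the times (1.92 ± 0.347, adjusted p = 0.0354). RP24-258K6.2 went from between 64.0 and 218 (median 92.6) to between 179 and 754 (median 379), with 5 of 6 ZT20 libraries above all of ZT8 (1.74 ± 0.311, adjusted p = 0.0354); its highest value came from the striatal library, without which the change was 1.48 ± 0.254. The other 3 clone-named rows, RP23-188K3.3, RP23-216O10.2 and RP23-441I8.8, changed by 1.03, 1.27 and 1.03 with adjusted p of 0.0238, 0.0449 and 0.0475, and none overlapped between the times.

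Rapgef4os2 is an annotated antisense transcript (chr2:72224688-72232302, minus strand) opposite Rapgef4, which encodes the cAMP sensor EPAC2. It ran from 506 to 914 normalised counts at ZT8 (median 707) and from 1000 to 2898 at ZT20 (median 1573), so every ZT20 library lay above every ZT8 library (1.27 ± 0.241, adjusted p = 0.0449). Cdk19os (chr10:40348508-40350103, minus strand), opposite the Mediator kinase gene Cdk19, ran from 17.9 to 28.3 (median 21.98) at ZT8 and from 34.8 to 82.0 (median 52.3) at ZT20, again without overlap (1.22 ± 0.219, adjusted p = 0.0354). Gm44313, whose sequence is given above, ran from 153 to 247 (median 208) at ZT8 and from 317 to 487 (median 348) at ZT20 (0.84 ± 0.139, adjusted p = 0.0238). Without a strand-matched count, reads of these antisense rows and of the genes opposite cannot be told apart.

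The 2 rows that were higher at ZT8 are protein-coding. Son (chr16:91647506-91679221, plus strand), which overlaps Donson on the other strand, ran from 298 to 400 normalised counts at ZT8 (median 332) and from 163 to 242 at ZT20 (median 198). All ZT20 libraries lay below all ZT8 libraries, and the log2 change was -0.81 ± 0.131 (adjusted p = 0.0238). Zfp846 (chr9:20581291-20605409, plus strand) ran from 45.2 to 68.3 (median 63.7) at ZT8 and from 25.6 to 44.4 (median 29.5) at ZT20, without overlap (-0.96 ± 0.174, adjusted p = 0.036). In all, 9 of the 11 rows had groups that did not overlap, as had 122 of all 9413 rows (1.3%).

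**Figure D2:**
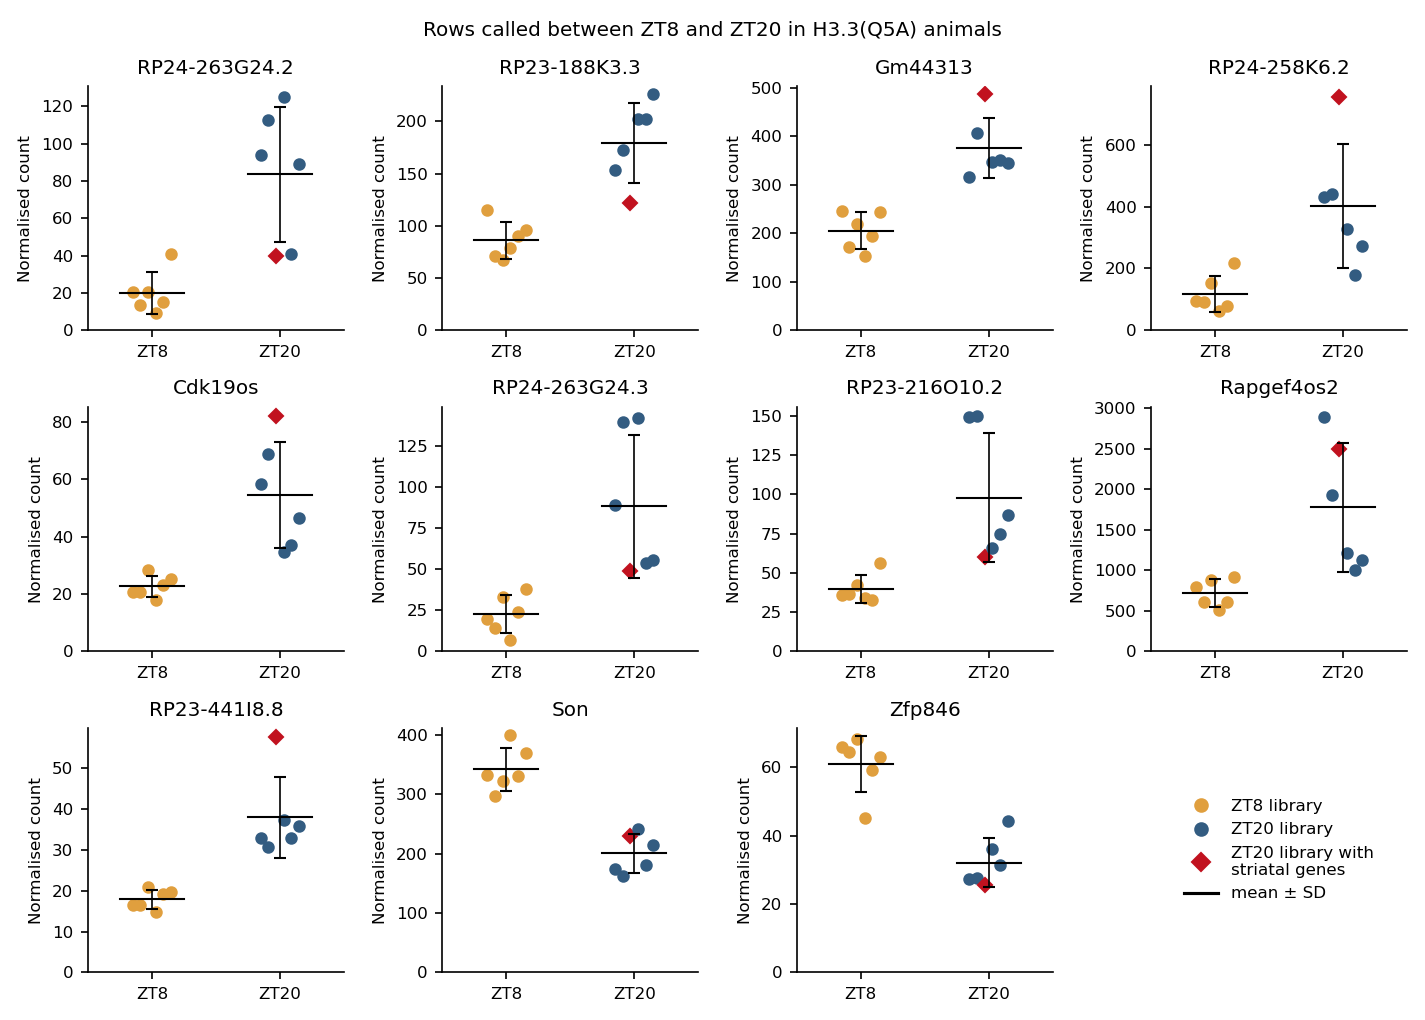
Normalised counts of the 11 called rows in each ZT8 and ZT20 library of the Q5A group, with lines for the mean and SD (n = 6 each) and a diamond for the striatal library. The times do not overlap in 9 of the 11 panels, and they overlap for RP24-263G24.2 and RP24-258K6.2.

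The other times of the Q5A series place these levels on the day. Means of Rapgef4os2 were 1062, 776 and 721 normalised counts at ZT0, ZT4 and ZT8 and 1417, 1101 and 1778 at ZT12, ZT16 and ZT20, so ZT8 held the lowest mean and ZT20 the highest. RP24-263G24.2 had means of 55.8, 24.9, 20.1, 53.4, 75.7 and 83.5 over the same order of times, with the same extremes. Gm44313 was also lowest at ZT8 (205) and highest at ZT20 (375), with 240 to 305 at the other times. Son was highest at ZT8 (342) and lay between 194 and 250 at all other times, with ZT20 (201) close to ZT16 (194). Zfp846 was highest at ZT8 (61.0) and lowest at ZT16 and ZT20 (31.6 and 32.1). The rows were chosen by ZT8 and ZT20, so that these times are extremes is no separate observation. The cohorts were also mixed unevenly over the times. At ZT4 Son stood at 248.5 to 321.7 in cohort 1, 238.7 and 144.2 in cohort 2 and 139 in cohort 3. At ZT12 it stood at 219.3 to 309.8, 275.8 and 171.7 in the same order of cohorts. Replicates 2 and 3 of cohort 2 at ZT4 held nearly identical counts and were averaged into 1 library, the 144.2 above. When all Q5A libraries of the 6 times shared 1 estimate of the spread, 11 of 11706 rows were called between ZT20 and ZT8. Of these, 5 were among the 11 above. All of them were higher at ZT20 and 0 were higher at ZT8, so Son and Zfp846 were not called in that fit.

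These 11 calls depended on single libraries, while the size of the changes varied less. With each library left out, the log2 change ran from 1.88 to 2.36 for RP24-263G24.2, from 1.07 to 1.405 for Rapgef4os2 and from -0.86 to -0.74 for Son. The number of calls was 0 without any of the 5 cohort 1 libraries of ZT8 or without replicate 1 or 2 of cohort 1 at ZT20, 9, 15 and 11 without the other ZT20 libraries, and 77 without the cohort 2 library of ZT8. Leaving out the striatal library gave 66 calls among 9807 rows (0.673%), 59 higher at ZT20 (0.602%) and 7 higher at ZT8 (0.0714%), and 7 at an adjusted p under 0.01 (0.0714%). All 11 rows were among the 66 and among the 77. The cohorts were spread unevenly, with 5 cohort 1 libraries at ZT8 and 4 at ZT20, and 1 and 2 of cohort 2. Within cohort 1 alone 189 of 9885 rows were called (1.91%), with all 11 among them, whereas cohort 2 held too few libraries for a value. With the 3 ZT20 libraries low in the Parpbp row left out, an alternative chosen after seeing the data, 13 of 10675 rows were called (0.122%), which held 7 of the 11.

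**Figure D3:**
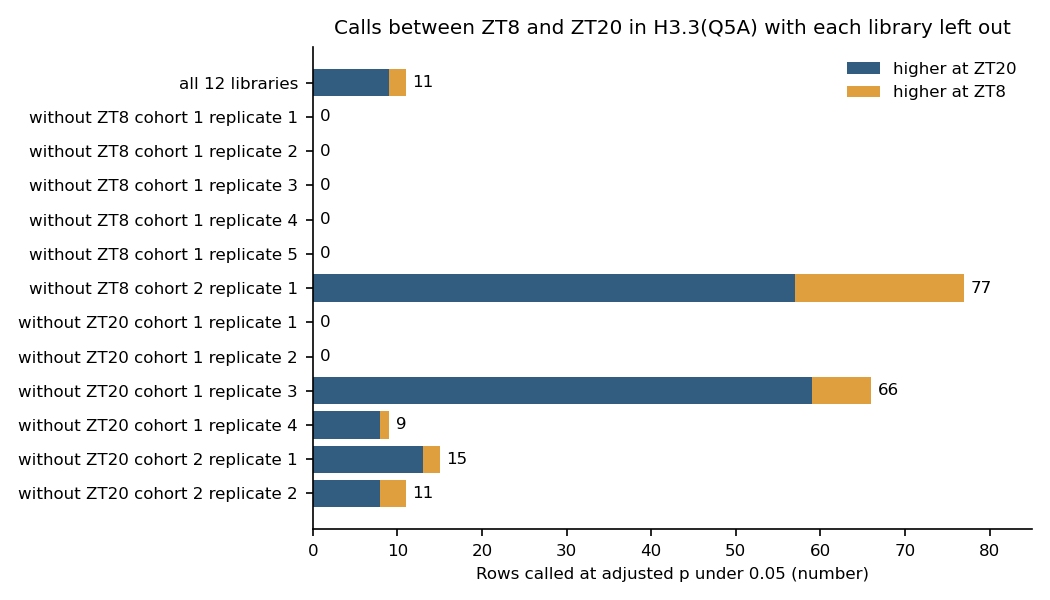
Number of rows called between ZT8 and ZT20 (adjusted p under 0.05) with all 12 Q5A libraries and with each library left out, split by the time at which the row was higher. The number runs from 0, for 7 of the 12 libraries left out, to 77.

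Without the striatal library, the rows higher at ZT20 took in genes of myelin. Of the 12 tested rows of the 13-gene oligodendrocyte list, 3 were called, all higher at ZT20, beside 0.602% of all rows in that direction. All 12 had a positive log2 change, with a median of 0.80 against -0.03 over all rows tested. With all 12 libraries 0 were called, the 12 changes were again positive, 8 had an unadjusted p under 0.05 and the median was 0.66 (-0.02 over all rows). Mbp, which encodes myelin basic protein, ran from 428 to 873 normalised counts at ZT8 (median 642.5) and from 633 to 2261 at ZT20 (median 1054), and changed by 1.09 ± 0.244 without the striatal library (adjusted p = 0.0415; 0.133 with it). Mobp, another structural myelin protein gene, ran from 137 to 314 (median 227) and from 222 to 743 (median 399), and changed by 1.07 ± 0.244 (adjusted p = 0.0453). Cldn11, the tight junction protein of myelin, ran from 15.8 to 27.0 (median 19.0) and from 17.0 to 88.2 (median 40.0), and changed by 1.37 ± 0.315 (adjusted p = 0.0464). For all 3 the groups overlapped, and 3 or 4 of the 6 ZT20 libraries lay above every ZT8 library.

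The level was uneven among animals. The summed level of the oligodendrocyte rows ran from 1707 to 2583 at ZT8 (median 1994) and from 2124 to 5097 at ZT20 (median 3001). The highest values, 5097 and 4996, came from replicates 1 and 2 of cohort 1, where the Parpbp row stood at 54.5 and 39819. The cohort 2 libraries of ZT20 stood at 2538 and 2157, inside the ZT8 range. At ZT12 the median in Q5A was 3703, above that of ZT20. Galnt5, a glycosyltransferase gene whose row lies opposite the oligodendrocyte gene Ermn, ran from 125 to 268 (median 180) and from 235 to 1094 (median 450) and changed by 1.64 ± 0.293 without the striatal library (adjusted p = 0.0147). In the controls 10 of the 12 tested rows had a positive change, with 5 called higher at ZT20 (10.7% of all rows) and a median of 0.70. Astrocyte rows there gave 9 of 10 positive changes, 4 called higher at ZT20 and a median of 0.65. The difference between Q5A and controls had adjusted p of 0.839 for Cldn11, 0.747 for Mbp and 0.912 for Mobp. The part of cell composition in this change was not tested.

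**Figure D4:**
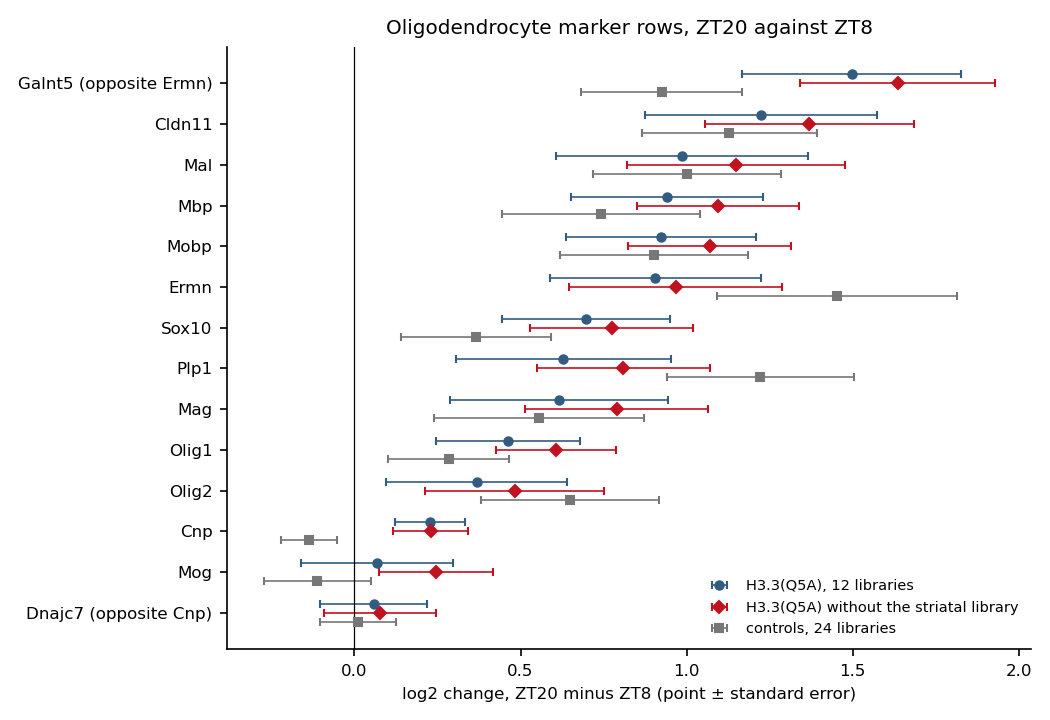
log2 change from ZT8 to ZT20 (point and standard error) of the tested oligodendrocyte rows, and of the rows opposite such genes, in the 12 Q5A libraries, in the 11 without the striatal library and in the 24 control libraries. All Q5A points lie above 0, with Galnt5 at 1.64 without the striatal library, and 2 control points of own rows, Cnp and Mog, lie below 0.

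The Mobp promoter is shown because Mobp was called here and the window, 250 bases before to 50 after the RefSeq start (chr9:120149492-120149791, plus strand, GRCm38.p6), holds 6 copies of the core ACAAAG, counted on either strand and printed in capitals, that SOX factors such as SOX10 of oligodendrocytes bind. That core was found in 18.7% of 32851 promoter windows of the same length, and 1 window (0.00304%), that of Mobp, held 6 or more. The Cldn11 window held none, the Mbp window was not searched, and the counts are no measure of binding.
Mobp promoter: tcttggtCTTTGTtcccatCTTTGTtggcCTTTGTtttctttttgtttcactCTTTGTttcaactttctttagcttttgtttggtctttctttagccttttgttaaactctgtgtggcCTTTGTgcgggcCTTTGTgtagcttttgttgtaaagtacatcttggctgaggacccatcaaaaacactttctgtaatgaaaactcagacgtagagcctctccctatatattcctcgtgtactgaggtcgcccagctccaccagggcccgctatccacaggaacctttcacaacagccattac

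Among the other rows called without the striatal library, but not with all 12, some with annotated genes are given here by name and not as a group. Bcas1 and its antisense rows Bcas1os1 and Bcas1os2, from a gene of early myelinating oligodendrocytes, changed by 1.04, 1.14 and 1.05 (adjusted p = 0.0407, 0.021 and 0.0464). Hapln2, a link protein at nodes of Ranvier, changed by 1.14 ± 0.251 (adjusted p = 0.0384). Ptgds, the lipocalin-type prostaglandin D synthase that makes a sleep-promoting prostaglandin, ran from 24.7 to 73.0 normalised counts at ZT8 (median 58.0) and from 55.1 to 279 at ZT20 (median 111), with a change of 1.33 ± 0.278 (adjusted p = 0.038). Cryab, a small heat shock protein gene whose row overlaps Hspb2, ran from 10.9 to 35.2 (median 23.3) and from 35.9 to 81.01 (median 50.3) and changed by 1.27 ± 0.271 (adjusted p = 0.0382). The lipid genes Scd3, a stearoyl-CoA desaturase, and Acss2, a cytosolic acetyl-CoA synthetase, changed by 1.81 and 0.74 (adjusted p = 0.0193 and 0.0382).

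Further rows were called in the same direction. Cplx1, the complexin of fast transmitter release, ran from 85.9 to 152 at ZT8 (median 121) and from 156 to 261 at ZT20 (median 233), with no overlap, and changed by 0.79 ± 0.167 (adjusted p = 0.0382; 0.0926 with all 12 libraries). Scrt1, a neuronal transcriptional repressor, changed by 0.83 and Cacna1d, an L-type calcium channel subunit, by 1.00 (adjusted p = 0.0453 and 0.0494). Gm22877, whose sequence is given above, ran from 54.6 to 112 (median 79.4) and from 105 to 272 (median 133.5) and changed by 1.13 ± 0.214 (adjusted p = 0.0199). Usp34, a deubiquitinase gene that overlaps Ahsa2, ran from 419 to 570 and from 587 to 922 without overlap and changed by 0.65 ± 0.123 (adjusted p = 0.0193). Of the 66 rows 22 were clone-named. The share of such names among all rows tested was not counted, so this is no result about them. Of all 54087 rows, 28499 matched the annotation by name.

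Beside Son and Zfp846, 5 rows were called higher at ZT8 without the striatal library. Pkia, an inhibitor of protein kinase A, ran from 19.6 to 51.5 normalised counts at ZT8 (median 35.3) and from 9.23 to 19.3 at ZT20 (median 17.0), with every ZT20 library below every ZT8 library, and changed by -1.29 ± 0.266 (adjusted p = 0.038). Scarf2, a scavenger receptor gene, ran from 18.7 to 32.9 (median 26.4) and from 4.70 to 17.1 (median 12.55), also without overlap (-1.26 ± 0.286, adjusted p = 0.0453). Ubr3 and Rnf32, which encode RING finger proteins, and the clone-named RP23-369O21.1 changed by -1.05, -0.99 and -1.04 (adjusted p = 0.0453, 0.0489 and 0.0382). Otp, a transcription factor gene of hypothalamic neuroendocrine neurons, ran from 24.1 to 47.2 (median 33.2) and from 2.56 to 26.4 (median 8.75) but did not pass the test with or without that library (adjusted p = 0.106 and 0.0533).

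Clock genes gave few testable rows of their own. Of 22 clock genes 15 had one, of which 0 were called, beside 0.117% of all rows, a share at which 15 rows would rarely hold a call. The change was positive in 5 and the median was -0.22, against -0.02 over all rows. In the controls 1 of 14 was called higher at ZT20 and 1 higher at ZT8, with a median of 0.14. Over all control rows these shares were 10.7% and 8.27%. The rows opposite clock genes held more reads. Thra, opposite the REV-ERBα gene Nr1d1, ran from 555 to 790 normalised counts at ZT8 (median 598) and from 383 to 591 at ZT20 (median 503), with 5 of 6 ZT20 libraries below all of ZT8 and a change of -0.40 ± 0.131 (adjusted p = 0.154). In controls the Thra row changed by -0.49 ± 0.111 (adjusted p = 0.00566), and the difference between Q5A and controls was 0.16 ± 0.19 (adjusted p = 0.61). Sphk2, opposite Dbp and Rpl18, ran from 854 to 1325 (median 915) and from 463 to 1590 (median 690); the change was -0.35 ± 0.23 (adjusted p = 0.443), and -0.63 ± 0.16 without the striatal library, which held the highest value (adjusted p = 0.0709). In controls Sphk2 changed by -0.74 ± 0.16 (adjusted p = 0.00442), and the difference was 0.44 ± 0.304 (adjusted p = 0.346). The own row of Dbp, the output factor, stood at 27.8 to 43.2 (median 34.9) and 15.0 to 38.7 (median 24.8) and did not pass (-0.46 ± 0.221, adjusted p = 0.291).

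Of the 19 gene lists 18 had a row tested, and no own row of these was called with all 12 libraries, where 0.117% of all rows were. Response genes gave medians of 0.17 over 7 tested immediate early genes, 0.22 over 5 glucocorticoid targets, -0.10 over 9 temperature-responsive genes, -0.10 over 12 chaperones of the endoplasmic reticulum and -0.32 over 9 cholesterol synthesis genes. In controls 5 of 8 temperature-responsive genes, 6 of 12 chaperones and 1 of 9 cholesterol genes were called higher at ZT20, beside 10.7% of all rows, with medians of 0.59, 0.58 and 0.37, against 0.06 over all rows. A further list held H3.3 genes, their chaperones, transglutaminase 2 and genes of lysine 4 methyltransferase complexes. It had 1 positive change of 11 tested in Q5A (median -0.20). In controls 9 of its 10 tested genes had a positive change (median 0.31, 1 called higher at ZT20). Among them Kmt2c (opposite Gm42585), a lysine 4 methyltransferase gene, ran from 10.29 to 30.8 at ZT8 (median 23.25) and from 12.1 to 19.85 at ZT20 (median 15.5) in Q5A; its change was -0.53 ± 0.259 (adjusted p = 0.296) against 0.94 ± 0.251 in controls (adjusted p = 0.0133), and the difference of -1.38 ± 0.391 had an adjusted p of 0.0587.

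Lists of cell constituents and cell types gave the following counts. Over 39 ribosomal protein rows the median was -0.05 and over 54 oxidative phosphorylation rows -0.07, against 0.18 and 0.48 in the controls. In controls 5 of 36 and 8 of 48 rows were called higher at ZT20, beside 10.7% of all rows. Those called higher at ZT8 were 3 and 0, beside 8.27% of all rows. None of 13 mitochondrially encoded genes was tested. The histamine list of 10 genes, which also holds histamine receptor and GABA genes, left 5 tested rows with a median of 0.19. Slc18a2, the vesicular monoamine transporter gene, ran from 52.3 to 108 (median 75.5) and from 54.9 to 176 (median 110) without passing (0.51 ± 0.245, adjusted p = 0.289). In controls it was called at 1.05 ± 0.216 (adjusted p = 0.00378). The controls held more libraries, and a call there without one in Q5A does not show that the changes differ. Medians were -0.01 over 10 astrocyte rows, 0.30 over 5 microglia rows, -0.30 over 2 endothelial rows, 0.03 for the 1 choroid plexus row and 0.44 over 2 pituitary rows. Teddm2, whose row lies opposite the astrocyte glutamine synthetase gene Glul, ran from 2257 to 4856 at ZT8 (median 2916) and from 4299 to 5522 at ZT20 (median 4731) and did not pass (0.59 ± 0.156, adjusted p = 0.116). The 10 striatal rows all had positive changes (median 0.84), and 3 were positive without the striatal library (median -0.18). The 6 tested hypothalamic peptide rows had a median of -0.85, and -0.40 over 7 rows without the striatal library. Trh, thyrotropin-releasing hormone, ran from 7.37 to 49.1 (median 17.2) and from 1.28 to 12.8 (median 5.87) and did not pass (-1.74 ± 0.488, adjusted p = 0.119).

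In the controls the same contrast gave 1680 calls among 8837 rows (19%), 949 higher at ZT20 (10.7%) and 731 higher at ZT8 (8.27%), from 24 libraries against 12. Each control virus alone gave fewer calls than both pooled, 378 of 8600 in GFP with 11 libraries (4.4%) and 62 of 9379 in H3.3 with 13 libraries (0.661%). All 11 rows called in Q5A had the same sign in the pooled controls, and in H3.3 alone 10 did, RP24-258K6.2 standing at -0.39 there. Of those higher at ZT20, 3 of 9 were called in the pooled controls, RP24-263G24.2 (0.70), RP24-263G24.3 (1.11) and RP23-188K3.3 (0.34). Both rows higher at ZT8 were called in the pooled controls, Son at -0.50 ± 0.149 (adjusted p = 0.021) and Zfp846 at -0.97 ± 0.206 (adjusted p = 0.00414). The other 6 changed in controls by 0.04 to 0.51 without passing. Of the 949 rows higher at ZT20 in controls, 932 were tested in Q5A, where 348 had the same sign and their median was -0.13, against 0.76 in controls. Of the 731 higher at ZT8, 728 were tested, 412 had the same sign and the median was -0.04 against -0.51. Of all 8712 rows tested in both, 2027 were positive in both (23.3%) and 1759 negative in both (20.2%). Another 2740 were negative in Q5A and positive in controls (31.5%), and 2186 were the reverse (25.1%). The same-sign counts are to be read beside these shares. Pearson's r of the log2 changes was -0.02 and Spearman's rho -0.10, a description across rows that share libraries and are not independent.

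**Figure D5:**
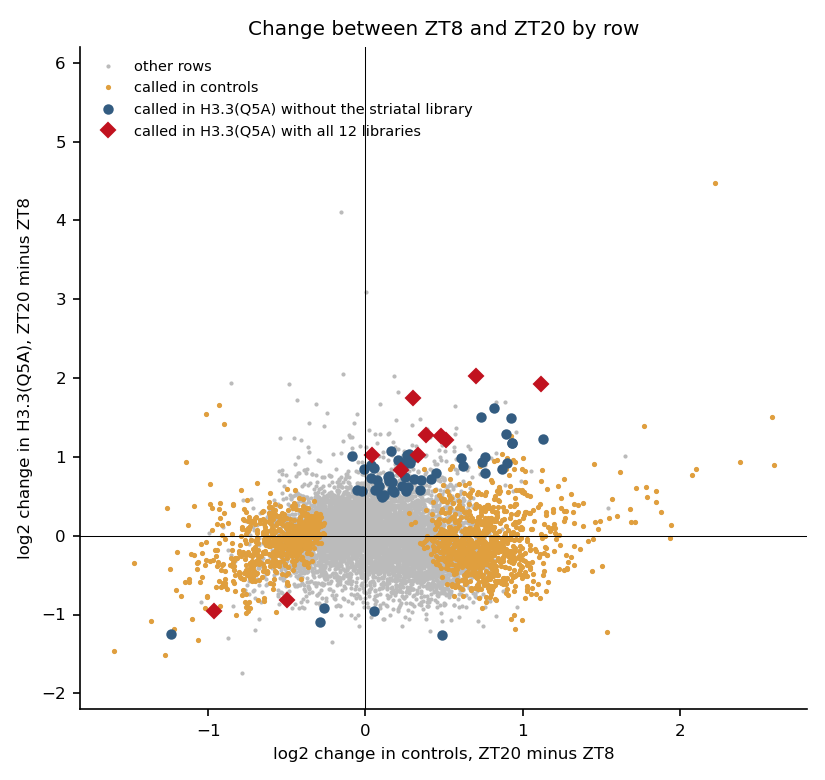
log2 change from ZT8 to ZT20 in the 12 Q5A libraries (vertical) against that in the 24 control libraries (horizontal) for 8712 rows, coloured by where a row was called. The 11 rows called in Q5A lie in the quadrants where both changes have the same sign, while the orange rows called in controls spread on both sides of 0 in Q5A.

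The test of the difference itself, of the ZT20 minus ZT8 change in Q5A against that in controls, called 48 of 11403 rows (0.421%), 17 more positive in Q5A (0.149%) and 31 more negative (0.272%). It called 0 rows by edgeR without the striatal library, where 2545 of 11701 rows (21.8%) had an unadjusted p under 0.05, 0 with cohort as a covariate, and 806 without the cohort 2 library of ZT8. The clone-named RP23-355L10.3 led with 4.32 ± 0.849, at 15507 normalised counts in the striatal library, at most 304 in the other Q5A libraries and at most 399.7 in the controls. Gm26280, an rRNA model (chr1:135150666-135150766, minus strand), ran in Q5A from 2.86 to 11.7 at ZT8 (median 7.68) and from 7.13 to 19.9 at ZT20 (median 13.5), and in controls from 5.62 to 27.4 (median 16.9) and from 5.02 to 9.64 (median 6.04), a difference of 2.06 ± 0.426. Bicd2, an adaptor of the dynein motor (chr13:49341585-49387026, plus strand), ran in Q5A from 13.1 to 38.2 (median 28.9) and from 11.3 to 25.8 (median 18.5), and in controls from 11.6 to 24.4 (median 18.9) and from 21.3 to 43.9 (median 29.0). Its change was -0.66 ± 0.27 in Q5A and 0.78 ± 0.169 in controls, a difference of -1.36 ± 0.292. All 3 had an adjusted p of 0.0492. For the 11 rows called within Q5A the adjusted p of the difference lay between 0.0538 and 0.904, so none of them was shown to change by another amount than in controls.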

How the data were processed

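The authors made stranded Illumina libraries from dissected TMN, aligned reads with STAR 2.7.11b to GRCm38 and counted them per gene name with HTSeq 2.0.5 in its forward-stranded mode. Raw counts were taken as deposited, and rows that name no gene were left out. Groups came from the labels, and 18 files tied to no sample were not used. Counts were compared with the edgeR 4.0.16 quasi-likelihood test in R 4.3.3 (TMM, filterByExpr with a minimum count of 10 and total of 15, Benjamini-Hochberg adjustment over all rows, called under 0.05, prior count 0.125), for ZT20 against ZT8 in Q5A, in controls and for the difference between them. DESeq2 1.42.0 was an alternative, whereas the authors used version 1.44.0. Size factors for normalised counts came from 9428 rows over 110 libraries, as the nearly identical pair of Q5A libraries at ZT4 was averaged into 1. P-values measure the spread between animals, and counting error limits rows of few reads. Positions and opposite genes came from a GENCODE annotation of GRCm38 and bedtools 2.31.1. The procedures were tested on simulated data.

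The named rows are those of smallest p: 10 in each direction with all 12 libraries and without the striatal library, 3 in the test of the difference, and up to 4 in each of 19 gene lists and among the rows opposite its genes. The remaining rows called without the striatal library, the marker rows of the libraries that stood apart and Gm22877 were added after their values were seen. The comparison, the lists and the rule were chosen with earlier results of these data known. Alternatives were another tool, other scaling, no filter, cohort, a replicate block and each library left out. The result for 1 named row is not reported here.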

Additional observations from a re-analysis of the deposited data

Results flagged for a closer look

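In 46 checks, each of a measure over the 6 Q5A libraries of ZT8 or of ZT20, 5 held a library far from the others. The checks share libraries and include the rows called, so no rate by chance can be set beside this count. At ZT8 the summed rows of the histamine list were lowest in the cohort 2 library, at 193 normalised counts, where the next library stood at 361.5. That list also holds histamine receptor and GABA genes. Hdc itself stood at 6.55 in the cohort 2 library, within the ZT8 range of 1.03 to 12.5. The highest ZT8 library for RP24-263G24.2 stood at 40.9, with the next at 20.8. At ZT20 the striatal library was highest in the summed striatal markers (3155, next 444), in the summed microglia markers (554.7, next 434) and in RP23-441I8.8 (57.6, next 37.4). This library was chosen for mention because it holds striatal genes, so its striatal value is no separate observation.

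The test of the difference between Q5A and controls called 48 of 11403 rows (0.421%), and the 3 of smallest p are given here. The log2 difference was 4.32 for RP23-355L10.3, 2.06 for Gm26280 and -1.36 for Bicd2, each at an adjusted p of 0.0492 by edgeR. With the striatal library left out no row passed that test.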

How the results depend on the processing

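The number of rows called in Q5A was 211 by DESeq2, 456 of 28150 without a filter on low counts, 189 within cohort 1, 6 with a robust fit and 0 with the replicate block, against 11 reported; it was also 11 with DESeq2 size factors (11 of the same rows) and with cohort as a covariate (7 higher at ZT20 and 4 at ZT8, 9 of the same rows). Alternatives chosen after seeing the data gave, without the striatal library, 175 by DESeq2, 104 with cohort as a covariate and 371 within cohort 1. Leaving out 1 library gave 0 to 77 calls, and 0 to 7 at an adjusted p under 0.01. At 0.01 DESeq2 gave 36, no filter 243 and cohort 1 alone 8, and the alternatives added later gave 59, 10 and 156 in the same order, and 4 without the 3 ZT20 libraries low in the Parpbp row. Replicate numbers did not pair the libraries (correlations of deviations between same-numbered libraries -0.166 to 0.149), so the 0 calls under the block are not read as a weaker effect. In controls GFP alone gave 378 and H3.3 alone 62, and leaving out 1 library, also added later, gave 823 to 2570. The test of the difference gave 532 by DESeq2, 84 without a filter, 183 within cohort 1, 1 against GFP, 77 against H3.3, 0 with cohort as a covariate, 0 without the low-Parpbp libraries, and 0 to 806 with 1 Q5A library left out. The cause was not tested.

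Of 2570 alternative values for 110 named rows, 11 changed sign, all in rows not called. With 1 library left out Pde10a ran from -0.50, without the striatal library, to 1.92, and Parpbp from -0.60 to 0.03. Pde10a also turned to -0.28 and -0.12 with cohort as a covariate and within cohort 1 without it, and to -0.63 without the low-Parpbp libraries, where Hcrt turned to 0.30 and Parpbp to 0.70. Parpbp turned to 0.03 without replicate 1 or replicate 3 of cohort 1 at ZT20, and to 0.05, 0.19 and 0.01 by DESeq2, with the covariate and within cohort 1, each without the striatal library. Few reads per row limit the clock, histamine and peptide genes, of which 26 of 48 had a row tested.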
